A study of Mus musculus with 26 samples.

Results

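The livers compared here came from the 5 mice given benoxacor at 0.5 mg/kg and the 5 given 0 mg/kg, taken by the dose in their labels from a series of 26 mice whose remaining groups had 8 mice each at 5 and 50 mg/kg. Benoxacor is a herbicide safener, a compound added to herbicide formulations to protect the crop. All animals were C57BL/6 mice dosed by oral gavage on 3 consecutive days, housed from 4 to 8 weeks of age with bedding mixed between cages, and their livers were collected 24 hours after the final dose. Bulk RNA was sequenced and reads were counted per gene, and each library came from a separate mouse. The labels give no sex and no hour of collection.

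Mouse numbers fall into 2 runs, and the labels do not state what separates them. In the run from 601, controls were mice 601, 602, 603 and 604 (0 mg/kg replicates 1 to 4) and mice 605, 606 and 607 received 0.5 mg/kg (replicates 1 to 3). In the run from 619, the control was mouse 619 (replicate 5) and mice 623 and 624 received 0.5 mg/kg (replicates 4 and 5). Within each run the numbers rise with dose, so dose cannot be told apart from whatever the number order stands for. The run from 619 rests on 1 control. The controls had 6571448 to 7249192 counts per library and the mice at 0.5 mg/kg had 5433074 (mouse 605) to 9088626 (mouse 623). Levels below are CPM, counts scaled to a common library size by TMM (trimmed mean of M values) factors, and differences are log2 fold changes of 0.5 over 0 mg/kg with a term for the run in the fit.

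The liver meets foreign chemicals through nuclear receptors. CAR (Nr1i3) and PXR (Nr1i2) switch on cytochrome P450 enzymes, which oxidise the compound, and conjugating enzymes such as glutathione S-transferases and sulfotransferases, which make it soluble. Hepatocytes also run the acute phase response: cytokines such as interleukin-6 and interleukin-1, acting through STAT3, C/EBP and NF-kB factors, raise secretion of serum amyloid A, orosomucoid and hepcidin. Hepcidin, encoded by Hamp, is the hormone that blocks iron export from cells.

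Over the 14415 genes tested with edgeR's quasi-likelihood F test, the smallest adjusted p was 0.391, so 0 genes (0%) came under the threshold of 0.05, and 1008 (6.99%) had an unadjusted p under 0.05. Of these, 547 were higher (3.79% of the genes tested) and 461 lower (3.2%) at 0.5 mg/kg. Limma-voom called 0 genes (0%), with 1000 (6.94%) at an unadjusted p under 0.05, and DESeq2 called 7 of the 4633 for which it gave an adjusted p (0.151%). Those 7 were Hamp, Saa2, Spp2, Gda and Chchd3, which were higher, and Sympk and Plcb3, which were lower. Without mice 605 and 606, the pair with high serum amyloid, edgeR again called 0 genes (0%) and 1630 of 14804 (11%) had an unadjusted p under 0.05, 5% higher and 6.01% lower. Within the run from 601 it called 33 genes (0.229%), with 16.2% at an unadjusted p under 0.05, 7.9% higher and 8.34% lower. Within the run from 619 it called 0 (0%), with 1798 (10.8%) at that unadjusted threshold, 5.28% higher and 5.5% lower.

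A separate description asked which genes had all 5 mice of a dose above all 5 of the other. There were 202 such genes (1.4%), with 93 higher at 0.5 mg/kg (0.645%) and 109 lower (0.756%). With CPM scaled by total count in place of TMM, the split was 19 higher and 353 lower, and that scaling moved the median gene from 0.01 to -0.15 on the log2 scale. List medians smaller than that shift are given below as values, with no direction. The counts of positive genes in such lists rest on TMM scaling and were not recounted with total counts. Of the 202 genes, 160 also had an unadjusted p under 0.05, 64 differed by over 1.5-fold and 22 by over 2-fold. For genes named below, overlap is given on the TMM scale alone. Which of the higher ones are among the 19 found with total-count scaling was not recorded.

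The main axis of variation among the 10 libraries did not separate the doses. The first principal component of the 10 libraries held 42.1% of the variance over 10557 genes, and put mice 605 and 606 (33.8 and 30.9) and the control 619 (22.2) at the opposite end from mice 623 and 624 (-31.3 and -34.7). The second component, with 14.1%, put every mouse at 0.5 mg/kg (2.16 to 25.8) above every control (-19.9 to -7.71). Mitochondrially encoded transcripts took 4.89 to 8.38% of the counts in the controls, with the control 619 highest, and 4.12 to 10.45% at 0.5 mg/kg, with mouse 605 highest of all 26 mice and mice 623 and 624 lowest of the 10 compared here. Of 14403 genes fitted in both runs, 4948 (34.4%) had the same sign of fold change in each, and the runs share no mice.

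**Figure D1:**
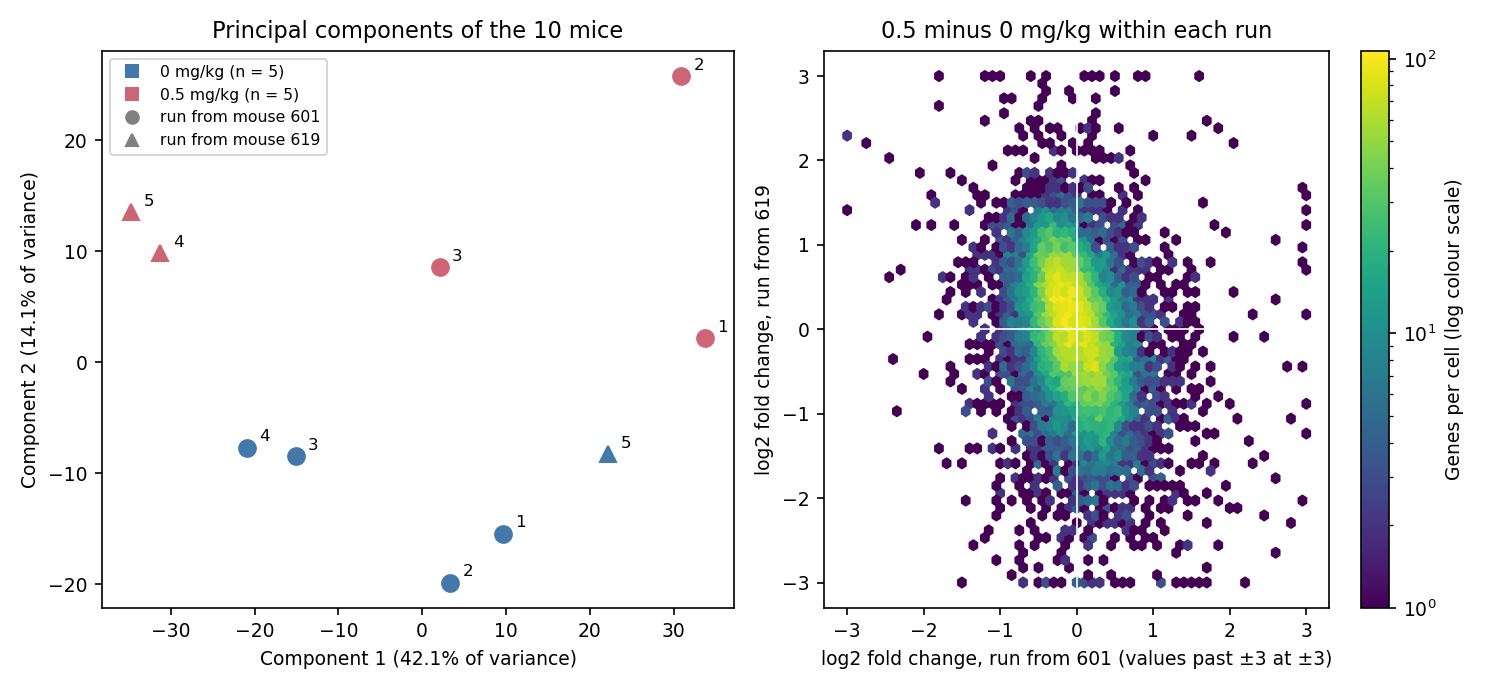
Left, scores of the 10 libraries on the first and second principal components of log2 CPM, coloured by dose, shaped by run and numbered by replicate; all mice at 0.5 mg/kg lie above all controls on the second component. Right, log2 fold change of each gene in the run from 619 (vertical) against that in the run from 601 (horizontal), with colour for the number of genes on a log scale; 34.4% of genes fall in the quadrants of equal sign.

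The tissue labels were checked against marker lists. Hepatocyte markers summed to 63930 to 86208 CPM in the controls and 61953 to 138372 at 0.5 mg/kg. Kupffer and macrophage markers were close in both groups (500 to 676 CPM against 429 to 682), with 0 of 18 at an unadjusted p under 0.05. Neutrophil markers were scarce, with 10 of 13 averaging under 1 CPM, and their sum was highest in mouse 605 (47.5 CPM), the control 602 (28.0 CPM) and mouse 606 (20.9 CPM) against 2.22 to 7.98 in the other 7 mice. Of 10 exocrine pancreas markers, 7 were at 0 in all 10 mice, and of 10 adrenal and adipose markers 4 were, among them the adrenal enzymes Cyp11a1 and Cyp11b1. Neither list was absent as a whole. The pancreas list summed to 12.5 to 30.6 CPM in controls and 15.6 to 21.1 CPM at 0.5 mg/kg. The adrenal and adipose list summed to 11 to 25.6 CPM in controls and 9.72 to 25.6 CPM at 0.5 mg/kg. Its members Star, Cyp21a1 and Fabp4 were expressed enough to be tested, with 0 at an unadjusted p under 0.05. In bulk tissue, fewer cells of a type and less RNA per cell cannot be told apart.

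Acute phase genes had the largest median difference of all 44 lists examined. Of 31 tested, 30 had a positive fold change, 20 had an unadjusted p under 0.05 in the higher direction and 0 in the lower, and the median log2 fold change was 0.98, beside a median of 0.005 and 50.8% positive over all genes. The size rested on mice 605 and 606: without them the median was 0.15 and 19 of 31 were positive. In that fit 2 were higher and 1 lower at an unadjusted p under 0.05. These mice were set apart for high Saa1, a member of this list, so some fall in the median was built into that choice. Within the run from 601 the median was 1.29 with 31 of 31 positive, and within the run from 619 it was 0.59 with 25 of 31 positive and 0 higher at that threshold.

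The promoters of serum amyloid genes and of the neutrophil-attracting chemokine Cxcl1 are shown as examples of genes that were high in mice 605 and 606, and that of Hamp because it was higher in all 5 mice at 0.5 mg/kg. Each is the 250 bases before the transcription start from RefSeq on GRCm38.p6, 5′ to 3′ on the gene's strand. Capitals mark matches, on either strand, to a C/EBP type motif (TTGCNNAA), an NF-kB type motif (GGNNNTTCC) or a STAT type motif with a spacer of 2 bases (TTCNNGAA) or 3 bases (TTCNNNGAA). The 3-base form was added after the windows were seen.
Saa1 (chr7:46742981-46743230, minus strand): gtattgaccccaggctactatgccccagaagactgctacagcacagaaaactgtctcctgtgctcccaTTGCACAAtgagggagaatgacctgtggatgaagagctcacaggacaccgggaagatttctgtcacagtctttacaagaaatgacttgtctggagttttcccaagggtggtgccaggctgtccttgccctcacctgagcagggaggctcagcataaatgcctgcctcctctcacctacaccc
Saa2 (chr7:46751583-46751832, plus strand): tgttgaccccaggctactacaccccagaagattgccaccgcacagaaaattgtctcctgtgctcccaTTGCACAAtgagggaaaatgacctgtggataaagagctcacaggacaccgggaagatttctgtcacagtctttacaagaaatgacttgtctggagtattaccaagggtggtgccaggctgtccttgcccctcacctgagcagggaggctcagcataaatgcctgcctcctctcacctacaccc
Saa3 (chr7:46715677-46715926, minus strand): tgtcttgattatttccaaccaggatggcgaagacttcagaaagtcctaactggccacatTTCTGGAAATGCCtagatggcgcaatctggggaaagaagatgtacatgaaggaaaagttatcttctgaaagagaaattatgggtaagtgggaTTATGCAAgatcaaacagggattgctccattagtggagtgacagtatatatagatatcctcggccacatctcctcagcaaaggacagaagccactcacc
Cxcl1 (chr5:90890995-90891244, plus strand): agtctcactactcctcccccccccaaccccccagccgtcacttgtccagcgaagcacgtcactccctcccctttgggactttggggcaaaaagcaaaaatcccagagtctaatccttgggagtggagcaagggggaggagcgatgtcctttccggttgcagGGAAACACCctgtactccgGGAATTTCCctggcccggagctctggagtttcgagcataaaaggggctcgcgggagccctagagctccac
Hamp (chr7:30944030-30944279, minus strand): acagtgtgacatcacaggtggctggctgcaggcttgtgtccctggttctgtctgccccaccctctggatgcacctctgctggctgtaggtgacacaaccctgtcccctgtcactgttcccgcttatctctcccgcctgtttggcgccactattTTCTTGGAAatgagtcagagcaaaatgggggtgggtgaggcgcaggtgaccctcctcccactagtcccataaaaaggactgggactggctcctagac

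The Saa1 and Saa2 promoters carry the same C/EBP type match, TTGCACAA, 182 and 183 bases before their starts. That of Saa3 has a C/EBP type match 99 bases before the start, and NF-kB and 2-base STAT type matches at 187 and 191 that overlap, while Cxcl1 has NF-kB type matches at 89 and 70. The Hamp window holds 1 match, the 3-base STAT type TTCTTGGAA, 97 bases before the start. Windows not shown were searched too. Those of Tifa and Cyp3a13, genes described below whose groups did not overlap, hold no match to any of these motifs. Those of Lcn2 and Cyp2b10 hold 1 C/EBP type match each. Promoters were found for 25 of the 31 acute phase genes (29 windows), and 51.7% of these windows hold the C/EBP type motif, against 8.14% of the windows of tested genes and 9.56% of all 32851 windows. The NF-kB type motif was in 24.1% of acute phase windows against 18.1% and 15.7%, the 2-base STAT type in 13.8% against 6.12% and 7.17%, and the 3-base STAT type in 31% against 5.99% and 7.02%. Some acute phase genes are near copies, such as Saa1 and Saa2, and some have more than 1 window, so these windows are not all separate instances. These matches describe letters in the windows, not bound sites.

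Serum amyloid A proteins are apolipoproteins that the liver releases in large amounts in inflammation. Saa1 (ENSMUSG00000074115, chromosome 7 from 46740497 to 46742980 in mm10) was at 94.2, 44.8, 14.6, 282 and 24.7 CPM in controls 601 to 604 and 619, and at 2311, 3233, 185, 65.0 and 19.3 CPM in mice 605, 606, 607, 623 and 624. Mice 605 and 606 stood above every control and the other 3 mice lay within the control range. At 5 mg/kg the range was 13.9 to 92.6 CPM with a median of 58.3, and at 50 mg/kg it was 27.7 to 655 CPM with a median of 105. The log2 fold change was 3.59 ± 1.24 (SE; unadjusted p = 0.00838, adjusted p = 0.537), and 0.15 without mice 605 and 606.

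Saa2, a near copy of Saa1 with which it can share reads, was at 25.6, 9.70, 4.53, 121 and 13.9 CPM in the same controls, and at 1647, 2872, 50.1, 24.3 and 7.73 CPM at 0.5 mg/kg. Its log2 fold change was 4.57 ± 1.42 (SE; adjusted p = 0.492 in edgeR and 0.0476 in DESeq2), and -0.11 without mice 605 and 606 in edgeR. Saa3, which is expressed by macrophages and other cells as well as by the inflamed liver, was at 3.99 to 12.1 CPM in the controls, 48.5 and 91.9 CPM in mice 605 and 606, and 5.62 to 11.2 CPM in the other 3. Its log2 fold change was 2.19 ± 0.54 (SE; adjusted p = 0.492), and 0.22 without the pair. In both genes the groups overlapped through mice 607, 623 and 624.

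Several further genes, named after their values were seen, had the same shape. Lcn2, which binds bacterial iron carriers, was at 0.296 to 3.08 CPM in the controls, 32.8 and 57.8 CPM in mice 605 and 606, and 0.702 to 2.66 CPM in the other 3. The metallothionein gene Mt2, whose product binds zinc and copper, was at 0.412 to 13.7 CPM in controls, 154 and 339 CPM in mice 605 and 606, and 2.28 to 5.15 CPM in mice 607, 623 and 624. Its neighbour Mt1 was at 150 and 329 CPM in the pair and 1.78 to 34.6 CPM in the remaining 8 mice. Metallothionein was high in single mice at other doses too, with Mt1 reaching 201 CPM at 5 mg/kg and, at 50 mg/kg, 98.6 CPM. S100a9, a neutrophil marker, was at 18.6 and 7.28 CPM in mice 605 and 606, 7.24 CPM in control 602 and at most 2.24 CPM in the other 7, and its part in the acute phase values was not tested.

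Other acute phase proteins were graded rather than switched. Orm1, an orosomucoid that binds drugs in plasma, was at 373 to 507 CPM in the controls and at 1195, 2034, 685, 600 and 499 CPM in mice 605, 606, 607, 623 and 624. Of these, 4 stood above the highest control, and the fifth lay within the control range. Its log2 fold change was 1.18 ± 0.30 (SE; adjusted p = 0.492), and 0.40 without the pair. Serpina3m, a serine protease inhibitor with close copies in its cluster, was at 141 to 268 CPM in controls and 250 to 913 CPM at 0.5 mg/kg, highest in mouse 606, with a log2 fold change of 1.16 ± 0.31 (SE; adjusted p = 0.492) and 0.73 without the pair. C-reactive protein, Crp, was at 326 to 521 CPM in the controls and 433 to 1192 CPM at 0.5 mg/kg. It had 0.74 ± 0.21 (SE; adjusted p = 0.492), which became 0.22 without the pair and -0.14 in the run from 619.

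**Figure D2:**
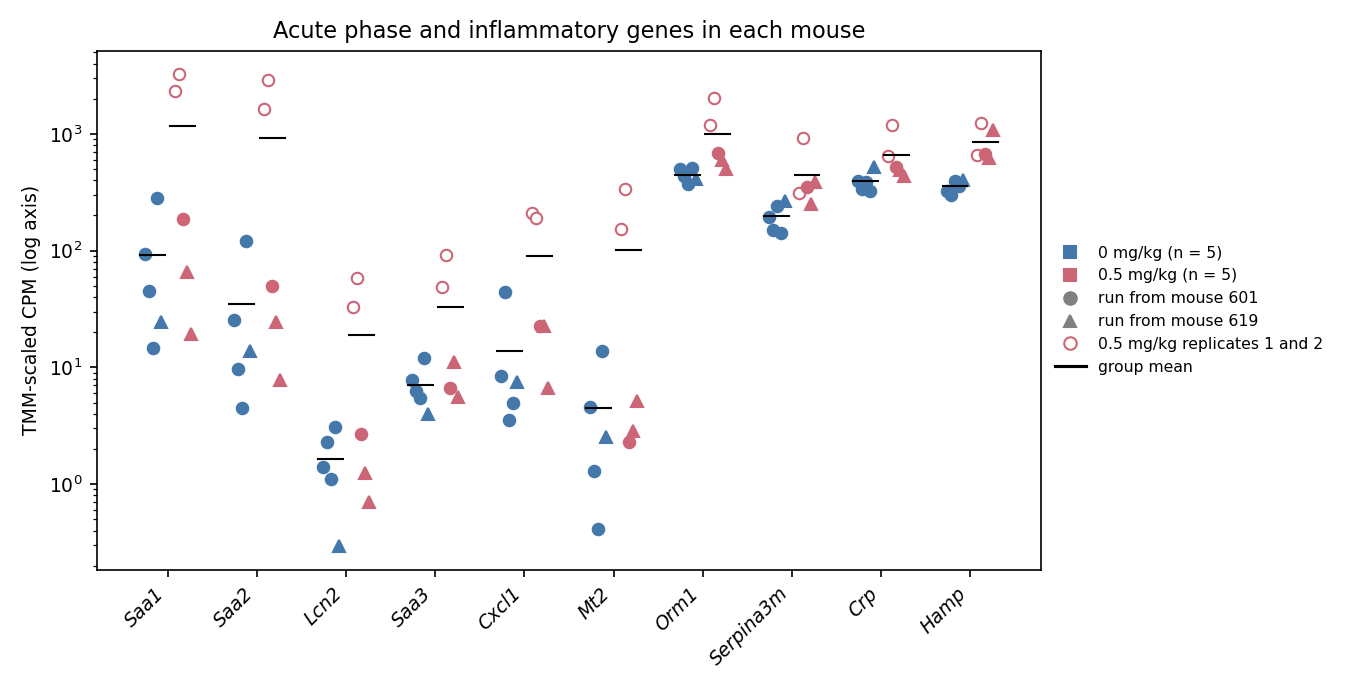
TMM-scaled CPM (log axis) of acute phase and inflammatory genes in each of the 5 mice at 0 mg/kg and 5 at 0.5 mg/kg, with bars at the group means and open circles for mice 605 and 606. In Saa1, Saa2, Saa3, Lcn2, Cxcl1 and Mt2 the open circles lie above all other mice, while all 5 mice at 0.5 mg/kg exceed all controls for Hamp.

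Cytokine signalling and interferon response genes both had lower medians without the same pair. In the cytokine list 21 of 27 genes were positive, 5 were higher and 0 lower at an unadjusted p under 0.05, and the median was 0.42, which became -0.10 without mice 605 and 606. Cxcl1 was at 8.40, 44.2, 3.57, 4.96 and 7.54 CPM in the controls and at 211, 190, 22.4, 22.4 and 6.67 CPM at 0.5 mg/kg. Control 602 stood apart within its group, and Cxcl1 had a log2 fold change of 2.69 ± 0.85 (SE; adjusted p = 0.492), with 0.39 without the pair. Il1r1, the receptor for interleukin-1, was at 59.7 to 81.0 CPM in controls, 167 and 233 CPM in mice 605 and 606, and 52.3 to 91.6 CPM in the other 3, and its fold change turned negative without the pair (-0.10). Among interferon response genes 38 of 46 were positive and 10 were higher and 0 lower at an unadjusted p under 0.05. Their median of 0.23 was 0.02 without the pair. The GTPase Irgm1, which acts against intracellular microbes, was at 32.7 to 48.7 CPM in the controls and 43.9 to 83.8 CPM at 0.5 mg/kg (0.56 ± 0.16, SE; adjusted p = 0.492; 0.37 without the pair). Parp14, an ADP-ribosyltransferase of the interferon response, had 0.52 ± 0.17 (SE; adjusted p = 0.499) and 0.11 without the pair.

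Mice 605 and 606 stood at opposite ends for albumin. Albumin (Alb), which hepatocytes lower in a strong acute phase response, was at 35927 to 51531 CPM in the controls, at 33686 CPM in mouse 605 and at 105976 CPM in mouse 606, the lowest and the highest of the 10. Mice 607, 623 and 624 had 62231, 87527 and 70866 CPM. Alb makes up most of the sum of the 15 negative acute phase genes, so that sum is not a separate result. It was lowest in mouse 605 (53340 CPM) and highest in mouse 606 (131555 CPM), against 57995 to 77927 CPM in the controls. Mice 623 and 624 had sums of 127027 and 109199 CPM, and the genes other than Alb were not summed apart. Of the 15 genes, 14 had a positive fold change and 2 were higher at an unadjusted p under 0.05. The median was 0.26 with all mice, -0.18 in the run from 601 against 1.004 in that from 619.

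Hamp differed from the serum amyloid genes in being higher in every mouse at 0.5 mg/kg. Hamp (ENSMUSG00000050440, chromosome 7 from 30942368 to 30944032) was at 322, 298, 395, 358 and 402 CPM in controls 601 to 604 and 619, and at 657, 1238, 674, 618 and 1080 CPM in mice 605, 606, 607, 623 and 624. The lowest dosed mouse was well above the highest control, and the log2 fold change was 1.30 ± 0.32 (SE, 95% confidence interval 0.64 to 1.96), a 2.46-fold difference (adjusted p = 0.492 in edgeR and 0.0476 in DESeq2). It was 1.22 without mice 605 and 606, 1.29 within the run from 601 (adjusted p = 0.0484 there) and 1.11 within the run from 619. At the higher doses Hamp was at 425 to 1183 CPM with a median of 593 (5 mg/kg) and 185 to 989 CPM with a median of 737 (50 mg/kg).

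Genes around hepcidin, named after their values were seen except Hmox1, were closer between the groups. Hamp2, a near copy of Hamp that could take some of its reads, was at 6.44 to 16.0 CPM in controls and 13.3 to 38.2 CPM at 0.5 mg/kg, with overlap. Bmp6, the ligand that drives hepcidin in response to iron, had a log2 fold change of -0.04 ± 0.29 (SE), and its targets Id1 and Smad7 had 0.43 ± 0.39 and -0.35 ± 0.26 (SE), all with overlapping groups. Hmox1, which breaks down heme and releases iron, was at 6.06 to 11.7 CPM in controls and at 26.1, 19.4, 7.74, 19.2 and 8.78 CPM at 0.5 mg/kg (0.82 ± 0.32, SE; adjusted p = 0.609). Of 17 iron handling genes 13 were positive, 3 were higher and 0 lower at an unadjusted p under 0.05, and Hamp was the 1 member whose groups did not overlap. The list median was 0.12.

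Tifa had the smallest unadjusted p of all genes (5.48e-05, adjusted p = 0.391). Tifa encodes an adaptor of NF-kB signalling that answers bacterial sugars in the cytosol. Its controls were close together, at 12.5, 11.9, 12.6, 12.5 and 11.7 CPM, and the dosed mice were at 57.3, 77.5, 26, 15.6 and 15.1 CPM. All 5 exceeded all controls, with the pair far ahead and the run from 619 just above. The log2 fold change was 1.64 ± 0.34 (SE), 0.67 without mice 605 and 606, and 2.08 in the run from 601 (adjusted p = 0.0412) against 0.42 in the run from 619.

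Other genes at the head of the higher side were of mixed function. Cers6, a ceramide synthase, was at 7.98 to 23.0 CPM in controls and 17.8 to 71.4 CPM at 0.5 mg/kg (1.56 ± 0.33, SE; adjusted p = 0.391), with mice 605 and 606 highest and the groups overlapping. Gda, which deaminates guanine, was at 23.9 to 42.8 CPM in controls, 85.2 and 86.0 CPM in the pair and 34.1 to 50.9 CPM in the other 3 (0.86 ± 0.20, SE; 0.48 without the pair). Arl8b, a small GTPase that moves lysosomes, was at 43.6 to 50.4 CPM in controls and 54.4 to 103 CPM at 0.5 mg/kg, with no overlap (0.64 ± 0.16, SE). The pair was highest for each of these 3 genes.

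Another set was higher in all 5 mice on the TMM scale, some by narrow margins, without the pair standing apart. Spp2, a phosphoprotein the liver secretes, was at 65.1, 63.4, 80.7, 74.4 and 88.5 CPM in controls and 91.8, 119, 111, 119 and 107 CPM at 0.5 mg/kg. Its log2 fold change of 0.54 ± 0.13 (SE; adjusted p = 0.492 in edgeR and 0.0476 in DESeq2) was 0.54 without mice 605 and 606. Chchd3, a subunit of the complex that shapes mitochondrial cristae, was at 71.7 to 90.2 CPM in controls and 98.6 to 120 CPM at 0.5 mg/kg, with 0.38 ± 0.11 (SE; adjusted p = 0.0479 in DESeq2) and 0.38 without the pair. Apip, an enzyme of methionine salvage, was at 8.78 to 12.4 CPM against 14.6 to 19.0 CPM (0.58 ± 0.15, SE). Pmvk, which makes a sterol precursor from mevalonate, was at 16.0 to 30.0 CPM against 31.1 to 44.1 CPM (0.71 ± 0.22, SE). Spp2, Chchd3, Apip and Pmvk kept positive fold changes in each run taken alone.

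**Figure D3:**
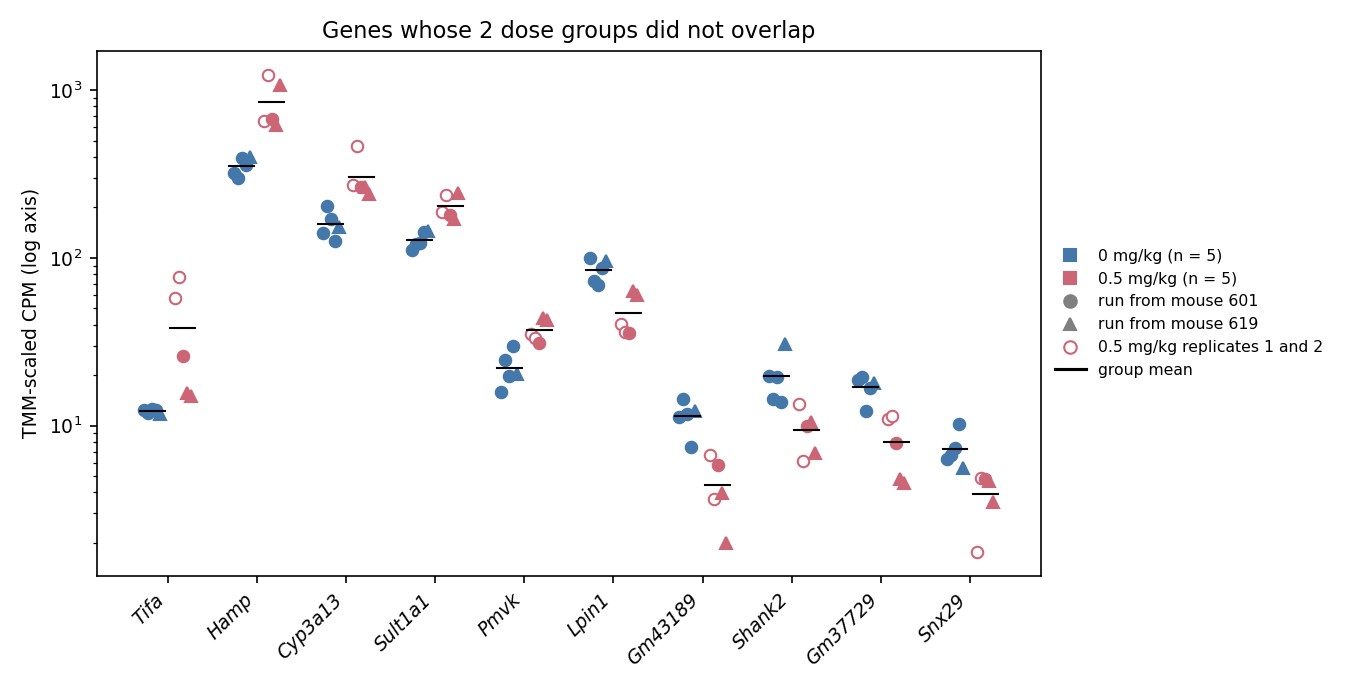
TMM-scaled CPM (log axis) in each mouse for the 5 higher and 5 lower genes with the largest fold changes among those whose groups did not overlap and whose mean was at least 5 CPM; bars are group means and open circles mice 605 and 606. The pair lies apart for Tifa and among the other dosed mice for Sult1a1 and Pmvk.

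Among the drug metabolism lists, CAR targets had the largest median in the fit to all mice. Of 18 tested, 14 were positive, 6 were higher and 0 lower at an unadjusted p under 0.05, and the median was 0.46. It was 0.59 without mice 605 and 606, with 16 of 18 positive. Within the runs from 601 and 619 it was 0.45 and 0.48, with 12 of 18 positive in each. Hepatocyte markers, a general list, had a median of 0.18 for all mice and 0.36 without the pair. In the runs from 601 and 619 the hepatocyte marker median was -0.23 and 0.93. Whether the CAR values go beyond a general hepatocyte difference was not tested. Cyp2b10 (ENSMUSG00000030483, chromosome 7 from 25897620 to 25926624), the P450 used as a CAR reporter, was at 0.700, 1.45, 1.51, 0.805 and 1.03 CPM in controls and 2.75, 4.58, 4.57, 5.08 and 5.38 CPM in mice 605, 606, 607, 623 and 624. Mouse 605 was the lowest of the dosed mice and still above all controls. All these Cyp2b10 values are low at this sequencing depth. The log2 fold change was 2.11 ± 0.68 (SE, 95% confidence interval 0.72 to 3.50; adjusted p = 0.492), with 1.81 in the run from 601 against 2.35 in that from 619.

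Cyp2b10 was as high at this dose as in many mice at higher doses: it ranged from 0.622 to 8.66 CPM with a median of 2.01 at 5 mg/kg, and from 1.12 to 12.2 CPM with a median of 3.69 at 50 mg/kg. The spread was narrower at 0.5 mg/kg (SD 1.02 around a mean of 4.47, n = 5) than at 50 mg/kg (SD 3.66 around 4.45, n = 8), which was not tested. Cyp2b10 at 0.5 mg/kg minus the mean of 5 and 50 mg/kg was 0.17 ± 0.47 (SE; adjusted p = 0.995). The P450s Cyp2c29 and Cyp2c50, whose close copies can share reads, overlapped between groups. Cyp2c29 was at 616 to 1075 CPM in controls and 845 to 1852 CPM at 0.5 mg/kg (0.72 ± 0.24, SE; adjusted p = 0.502), with 0.55 and 0.87 in the 2 runs. Cyp2c50 was at 515 to 724 CPM in controls 601 to 604, 1103 CPM in control 619 and 892 to 1433 CPM at 0.5 mg/kg, so the run from 601 gave 0.93 (adjusted p = 0.0418) while the run from 619 gave -0.04. The aldehyde dehydrogenase Aldh1a7 was at 106 to 168 CPM in controls and 168 to 225 CPM at 0.5 mg/kg (0.46 ± 0.17, SE; adjusted p = 0.547).

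PXR targets had 10 of 17 positive, 1 higher and 0 lower at an unadjusted p under 0.05, and a median of 0.05, which was -0.04 in the run from 601 against 0.77 in that from 619. The member at that threshold was Cyp3a13, a P450 at 142, 203, 171, 127 and 152 CPM in controls and 273, 464, 266, 265 and 242 CPM at 0.5 mg/kg. Its groups did not overlap and mouse 606 was highest. The log2 fold change of Cyp3a13 was 0.91 ± 0.26 (SE; adjusted p = 0.492), with 0.60 without mice 605 and 606 and 1.03 and 0.77 in the 2 runs. Cyp3a11, the usual PXR reporter in mouse liver, named after its values were seen, was at 2877 to 7373 CPM in controls and 3573 to 5429 CPM at 0.5 mg/kg (-0.08 ± 0.27, SE; 95% confidence interval -0.64 to 0.48). Abcc2, which exports conjugates into bile, was at 623 to 943 CPM in controls and at 564, 572, 556, 825 and 586 CPM at 0.5 mg/kg, where mouse 623 stood apart (-0.27 ± 0.17, SE).

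**Figure D4:**
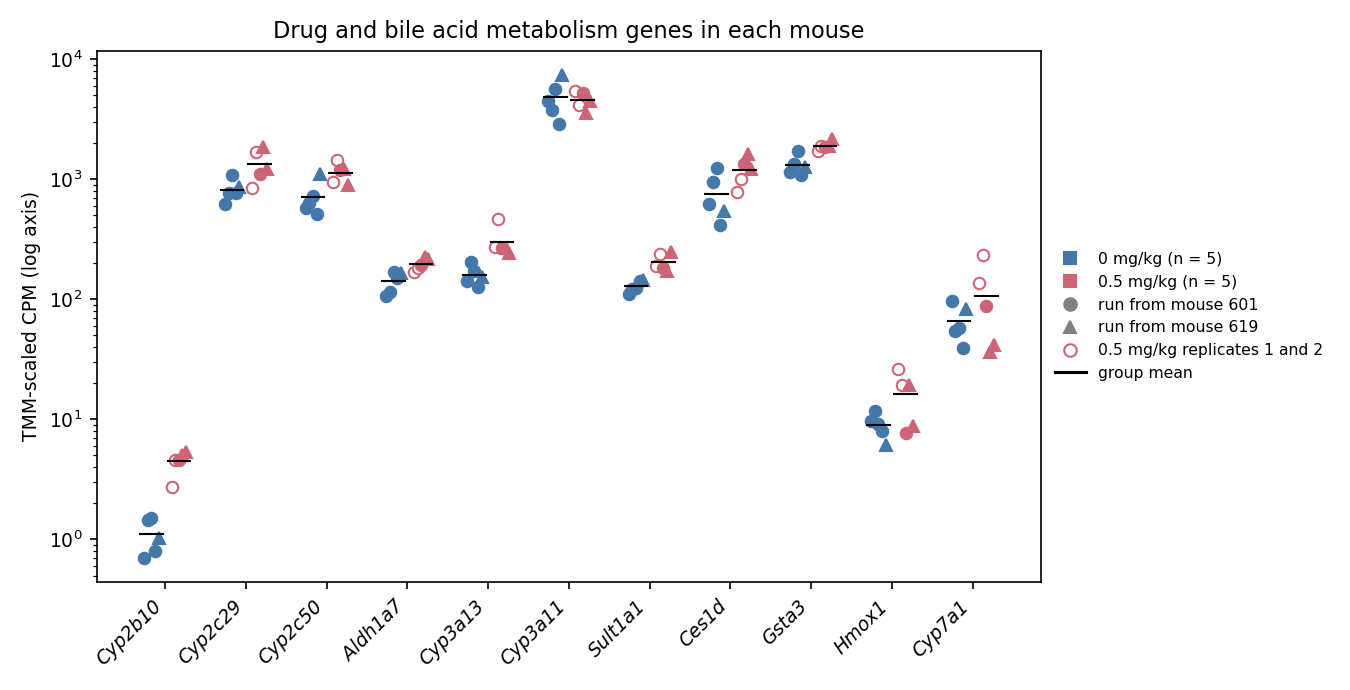
TMM-scaled CPM (log axis) in each mouse for P450s, conjugating enzymes, Hmox1 and Cyp7a1, with bars at group means and open circles for mice 605 and 606. All mice at 0.5 mg/kg exceed all controls for Cyp2b10, Cyp3a13 and Sult1a1, and the groups overlap for the other genes drawn.

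Among glutathione S-transferases and carboxylesterases, more genes had positive than negative fold changes. Sult1a1, which sulfates phenols, was at 111, 121, 123, 142 and 144 CPM in controls and 188, 238, 181, 171 and 245 CPM at 0.5 mg/kg, with no overlap. Its log2 fold change was 0.68 ± 0.23 (SE; adjusted p = 0.499), with 0.64 without mice 605 and 606 and 0.67 and 0.55 in the 2 runs. Sult1a1 was also high at 5 mg/kg (median 195 CPM) and 50 mg/kg (median 228 CPM), where the lowest mice were within the control range. Of 22 glutathione S-transferases 16 were positive, 4 were higher and 1 lower at an unadjusted p under 0.05, and the median of 0.23 was -0.17 in the run from 601 against 0.77 in that from 619. Of these 22, 19 were positive, 5 were higher and 0 lower without mice 605 and 606, and the median was 0.45. Gsta3 was at 1080 to 1723 CPM in controls and 1711 to 2162 CPM at 0.5 mg/kg (0.58 ± 0.19, SE; adjusted p = 0.499). Control 603 alone reached into the dosed range for this gene. Of 14 carboxylesterases 11 were positive with 3 higher and 0 lower at that threshold, and the median of 0.32 was 0.01 and 0.76 in the 2 runs. The carboxylesterases had 13 of 14 positive, 9 higher and 0 lower without mice 605 and 606, with a median of 0.59, where 5% of all genes were higher at that threshold. Ces1g was at 129 to 172 CPM in controls and 142 to 276 CPM at 0.5 mg/kg (0.56 ± 0.20, SE), with mice 605 and 606 the lowest dosed mice. Of 17 glucuronosyltransferases 12 were positive, with 2 higher and 0 lower at an unadjusted p under 0.05, and a median of 0.12. Without mice 605 and 606, 8 of 17 were positive with a median of -0.009, and the runs from 601 and 619 gave 0.19 and -0.13. Of 8 sulfotransferases 6 were positive, with 1 higher and 0 lower, and a median of 0.18. Single values of the Gst and Ces1 families are uncertain because close copies share reads.

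AhR targets had 8 of 9 positive and 1 higher, NRF2 targets 16 of 24 positive and 1 higher, and PPAR-alpha targets 21 of 30 positive with 0 higher and 1 lower at an unadjusted p under 0.05. The PPAR-alpha list had a median of 0.15, which was -0.28 in the run from 601 against 0.77 in that from 619. In the fit without mice 605 and 606, 25 of 30 PPAR-alpha targets were positive, 5 were higher and 0 lower, with a median of 0.47. The same omission gave 20 of 24 positive with 0 higher and 0 lower for NRF2 targets (median 0.24), and 6 of 9 positive with 0 higher and 1 lower for AhR targets (median 0.37). The PPAR-alpha member past an unadjusted p of 0.05 among all 10 mice was the fasting hormone gene Fgf21, at 0.579 to 7.14 CPM in controls and 0.589 to 2.23 CPM at 0.5 mg/kg (-1.42 ± 0.65, SE), where control 603 held the highest value. Without that control it was -0.75.

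Bile acid genes had 14 of 26 positive, with 2 higher and 0 lower at an unadjusted p under 0.05. Cyp7a1, which catalyses the rate-limiting step from cholesterol to bile acids, was at 97.3, 54.0, 57.5, 38.9 and 82.3 CPM in controls and 135, 232, 87.3, 36.3 and 41.9 CPM at 0.5 mg/kg. The order of groups turned with the run: 1.26 in the run from 601 against -1.05 in that from 619, with 0.63 ± 0.41 (SE; adjusted p = 0.818) for all mice and -0.16 without mice 605 and 606. Akr1d1, a reductase of the same pathway, was at 86.8 to 164 CPM in controls and 142 to 214 CPM at 0.5 mg/kg (0.56 ± 0.20, SE; adjusted p = 0.537). Slc51a, a subunit of the transporter that returns bile acids to blood, was at 9.02 to 13.02 CPM against 12.9 to 16.1 CPM (0.51 ± 0.17, SE). Both had positive fold changes in each run.

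Cholesterol synthesis had 15 of 24 positive and a median of 0.07, with Pmvk as the 1 member higher at an unadjusted p under 0.05. Fatty acid synthesis had 8 of 21 positive and a median of -0.08. Lpin1, which makes diacylglycerol and coactivates fasting genes, was its 1 member at that threshold, at 99.4, 73.0, 68.9, 86.6 and 96.5 CPM in controls and 40.2, 36.1, 35.5, 63.4 and 60.5 CPM at 0.5 mg/kg. The groups of Lpin1 did not overlap (-0.85 ± 0.29, SE; adjusted p = 0.502), and mice 605, 606 and 607 were lower than mice 623 and 624. At 5 and 50 mg/kg its medians were 50.6 and 48.8 CPM, with ranges of 39.2 to 110 and 25.9 to 77.0 CPM.

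Clock genes gave different values in the 2 runs. Nr1d1, the repressor REV-ERB-alpha of the clock, was at 89.2, 47.5, 64.4, 117 and 75.8 CPM in controls and 20.2, 11.6, 14.7, 59.5 and 55.0 CPM at 0.5 mg/kg. Mice 605, 606 and 607 lay below every control and mice 623 and 624 within the control range (-1.62 ± 0.52, SE; adjusted p = 0.499, and adjusted p = 0.289 for the difference between runs). Thra, the thyroid hormone receptor alpha gene, had the same pattern at 39.6, 27.8, 25.9, 60.1 and 39.9 CPM against 12.9, 12.7, 12.1, 28.9 and 29.6 CPM (-1.21 ± 0.32, SE; adjusted p = 0.492). Thra and Nr1d1 overlap at their ends on opposite strands of chromosome 11, so without a known strand setting their reads cannot be told apart there.

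Further clock outputs, named after their values were seen, went opposite ways in the runs. Dbp, a clock-driven transcription factor, was at 49.6 to 74.0 CPM in controls 601 to 604 and 11.6 to 30.3 CPM in mice 605, 606 and 607, but at 18.9 CPM in control 619 and 27.3 and 111 CPM in mice 623 and 624. Rgs16, a regulator of G protein signalling with a daily rhythm in liver, was at 20.5 to 42.4 CPM against 0.943 to 2.03 CPM in the run from 601, and at 3.84 CPM against 13.4 and 22.4 CPM in the run from 619. Over the 19 clock genes 11 were positive, 1 was higher and 1 lower at an unadjusted p under 0.05, and the median was -0.25 in the run from 601 against 0.45 in that from 619. The part of the clock in the other differences was not tested.

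Nuclear respiratory chain genes had 29 of 33 positive, 7 higher and 0 lower at an unadjusted p under 0.05, and a median of 0.16 that was 0.36 without mice 605 and 606. Ndufb3, a complex I subunit, was at 27.1 to 43.3 CPM in controls and 41.0 to 58.3 CPM at 0.5 mg/kg (0.55 ± 0.15, SE; adjusted p = 0.492), with 0.53 and 0.56 in the 2 runs. Ndufb5 had 0.45 ± 0.13 (SE), but 0.64 and -0.06 in the runs. Cytosolic ribosome genes had 29 of 37 positive and 5 higher, with a median of 0.16. The all-mouse medians of the respiratory chain and ribosome lists were smaller than the shift between scalings given above. Their counts of positive genes therefore give no direction. Complement and coagulation genes had 29 of 34 positive, 6 higher and 1 lower, led by the anticoagulant Pros1 (50.6 to 65.0 CPM in controls, 64.7 to 122 CPM at 0.5 mg/kg) and C9 of the membrane attack complex (625 to 732 against 743 to 1348 CPM, with no overlap). Without mice 605 and 606 Pros1 had 0.25 in place of 0.56, and C9 0.33 in place of 0.48.

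**Figure D5:**
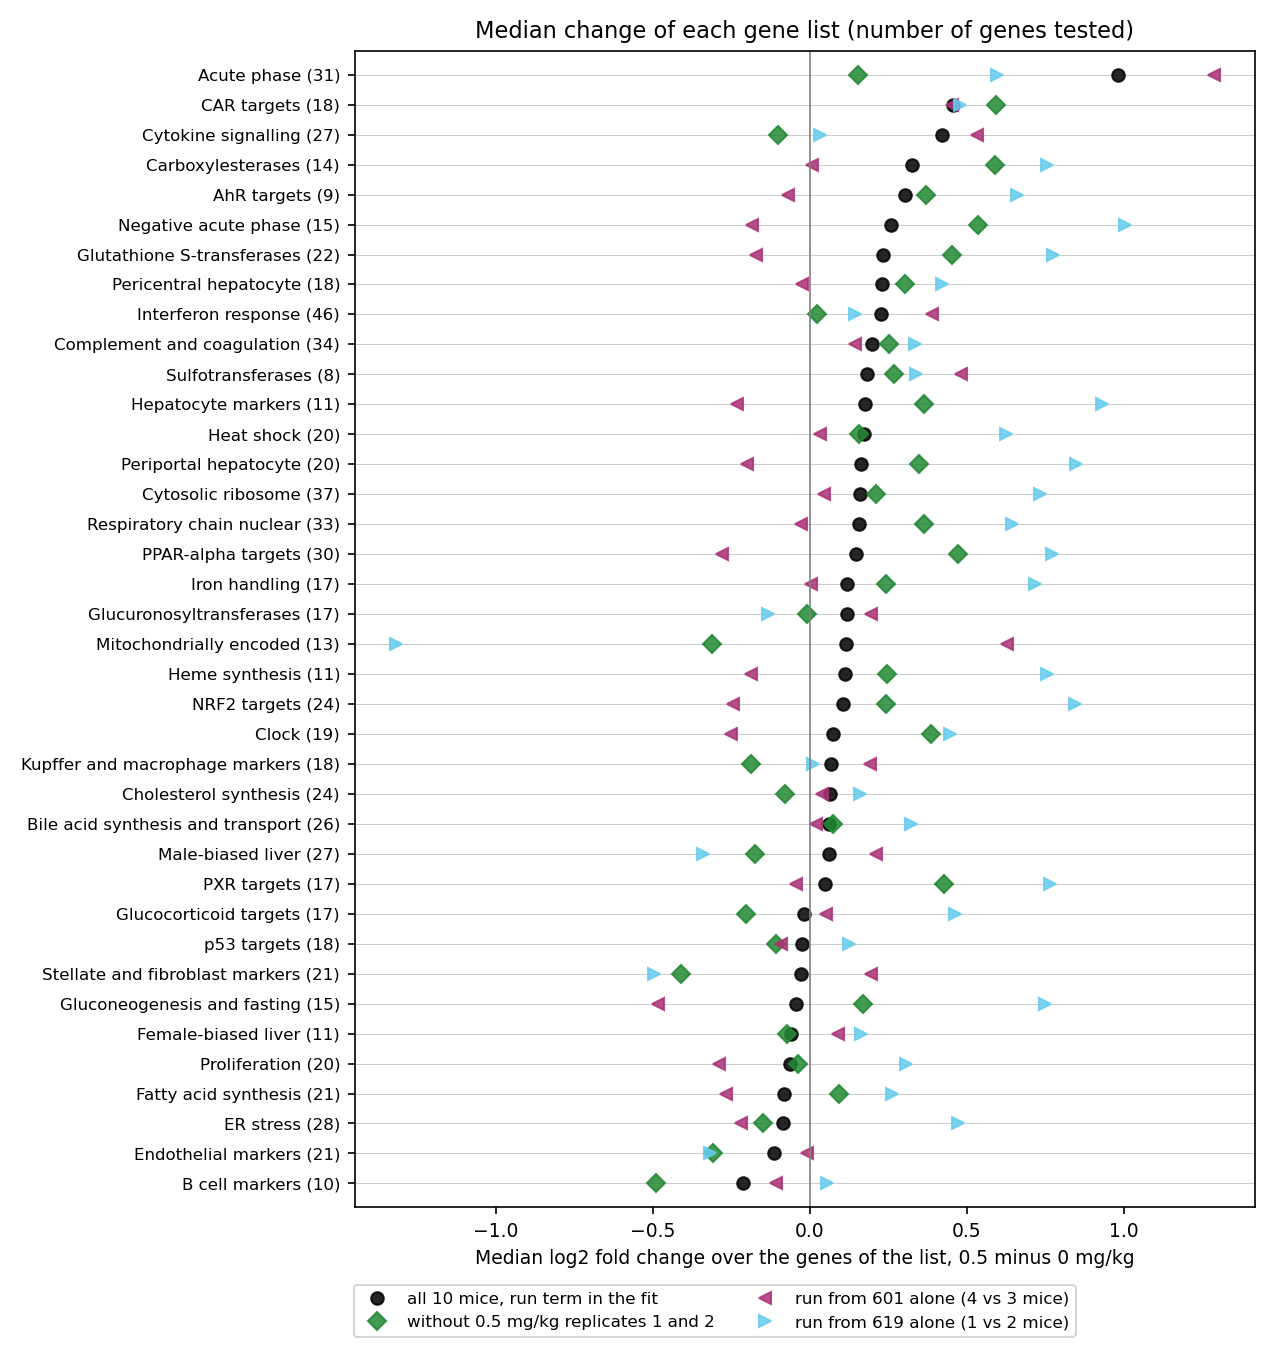
Median log2 fold change (0.5 minus 0 mg/kg) over the genes of each list, with the number tested in brackets, for all 10 mice, without mice 605 and 606, and within each run. The acute phase median falls from 0.98 to 0.15 without the pair, the CAR median lies at 0.45 to 0.59 in all 4 settings, and most other lists differ in sign or size between the runs.

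Endothelial markers also had an all-mouse median smaller than the shift between scalings, so their counts by sign give no direction. Of 21 tested, 16 were negative, and 0 higher and 4 lower at an unadjusted p under 0.05, with a median of -0.11 for all mice, -0.31 without mice 605 and 606, -0.01 in the run from 601 against -0.32 in that from 619. Their summed level was 600 to 747 CPM in controls and 488 to 714 CPM at 0.5 mg/kg. Eng, a co-receptor for TGF-beta on vessels, was at 56.4, 67.2, 56.0, 63.6 and 54.1 CPM in controls and 51.6, 46.5, 44.5, 52.2 and 41.0 CPM at 0.5 mg/kg, with no overlap (-0.32 ± 0.11, SE; adjusted p = 0.499). Ehd3, a sinusoidal endothelial protein of endosome traffic, was at 43.6 to 49.4 CPM against 29.8 to 44.0 CPM (-0.38 ± 0.14, SE). Control 603 lay just below mouse 623 for Ehd3.

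Lower genes outside the lists differed by small amounts in every mouse. Plcb3, a phospholipase C that signals downstream of G proteins, was at 41.0, 37.6, 38.6, 39.8 and 32.4 CPM in controls and 29.4, 25.6, 27.6, 27.0 and 31.6 CPM at 0.5 mg/kg. The groups did not overlap, by a narrow margin in the run from 619, and the log2 fold change was -0.42 ± 0.11 (SE; adjusted p = 0.492 in edgeR and 0.0476 in DESeq2). Sympk, a scaffold of messenger RNA 3′ end processing, was at 82.4 to 93.3 CPM in controls and 64.0 to 69.2 CPM at 0.5 mg/kg (-0.36 ± 0.10, SE; adjusted p = 0.0476 in DESeq2), with -0.37 and -0.34 in the runs. Ep400, a chromatin remodeller, was at 52.8 to 68.5 CPM against 40.3 to 52.3 CPM (-0.45 ± 0.12, SE), and the adenylyl cyclase Adcy9 at 18.6 to 22.4 CPM against 13.7 to 16.7 CPM (-0.48 ± 0.13, SE). Each of Sympk, Ep400 and Adcy9 had adjusted p = 0.492 in edgeR, and neither mouse of the serum amyloid pair stood apart in them.

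The remaining lower genes of that rank were Heatr5b (-0.50 ± 0.12, SE), Zfp687 (-0.61 ± 0.17), Zfp956 (-0.73 ± 0.19), Gpat2, a mitochondrial acyltransferase (-1.21 ± 0.32), and the noncoding Gm11748 (-1.71 ± 0.37) and Gm10390 (-0.96 ± 0.25). Gm11748 was at 1.07 to 2.61 CPM in controls and 0.381 to 0.808 CPM at 0.5 mg/kg, a low level at this depth. Gm10390 is annotated antisense, so its reads depend on the strand setting, which is not given. The synaptic scaffold gene Shank2 was at 13.8 to 30.8 CPM in controls and 6.20 to 13.5 CPM at 0.5 mg/kg (-1.10 ± 0.31, SE; adjusted p = 0.492), and the sorting nexin Snx29 at 5.62 to 10.2 CPM against 1.77 to 4.85 CPM (-0.90 ± 0.34, SE). The noncoding transcripts Gm43189 (-1.38 ± 0.50, SE) and Gm37729 (-1.10 ± 0.37, SE) also had groups that did not overlap. Zbtb16, a transcriptional repressor, overlapped between groups at 14.3 to 54.5 CPM and 9.39 to 30.7 CPM (-0.74 ± 0.27, SE; adjusted p = 0.577).

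The difference between 0.5 and 0 mg/kg itself differed between the runs for 35 of 14415 genes (0.243%) at an adjusted p under 0.05 in edgeR, with 5 more positive in the run from 619 (0.0347%) and 30 more negative (0.208%). At an unadjusted p under 0.05 there were 3777 (26.2%). Without mice 605 and 606 the counts were 0 and 1832 of 14804 (12.4%). Leaving out 1 mouse, with the sole control of the run from 619 kept, moved the 35 to 0 without mouse 605, 623 or 624, to 3 without mouse 606, to 8 and 6 without controls 603 and 604, to 62 without control 601 and to 621 without mouse 607. Olfr1033, an olfactory receptor gene with the adjacent copy Olfr1034, was at 16.6 to 33.9 CPM in controls 601 to 604 against 33.2 to 59.1 CPM in mice 605 to 607, and at 47.2 CPM in control 619 against 11.3 and 11.6 CPM in mice 623 and 624. The run difference was -3.04 ± 0.50 (SE; adjusted p = 0.0189) for Olfr1033 and -2.75 ± 0.46 (SE; adjusted p = 0.0189) for Olfr1034.

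Ergic1, a cargo protein between endoplasmic reticulum and Golgi, went the other way, at 45.3 to 62.2 CPM against 29.1 to 35.8 CPM in the run from 601 and 33.0 CPM against 61.1 and 54.1 CPM in the run from 619 (1.56 ± 0.31, SE; adjusted p = 0.0284). Apcs, serum amyloid P, named after its values were seen, was at 64.9 to 156 CPM in controls 601 to 604, 648 and 532 CPM in mice 605 and 606 and 122 CPM in mouse 607, and at 254 CPM in control 619 against 56.6 and 63.7 CPM in mice 623 and 624. Its run difference was -3.92 ± 0.68 (SE; adjusted p = 0.0221). The mitochondrial transcript mt-Nd6, also named after its values were seen, had -2.18 ± 0.47 (SE; adjusted p = 0.0446), and the 13 mitochondrially encoded genes had medians of 0.63 in the run from 601 (12 positive) and -1.32 in the run from 619 (0 positive, 9 lower at an unadjusted p under 0.05). These values moved with the share of mitochondrial counts given above, and their part in the run differences was not tested.

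Mice at 0.5 mg/kg were also set against the mean of the 5 and 50 mg/kg groups, which uses no controls. At an adjusted p of 0.05 edgeR called 0 of 14415 genes (0%, smallest adjusted p = 0.0811), and 780 (5.41%) had an unadjusted p under 0.05. It called 3 genes without mouse 607 or 623 and 6 without mouse 624. Saa3 had the smallest p, with a difference of 2.37 ± 0.41 (SE; unadjusted p = 7.13e-06): the highest mouse at 5 mg/kg was at 6.80 CPM and at 50 mg/kg at 10.7 CPM, below mice 605, 606 and 623. Tifa had 1.32 ± 0.26 (SE; adjusted p = 0.153), with at most 22.6 CPM in the mice of the higher doses, below mice 605, 606 and 607. Hamp had 0.29 ± 0.25 (SE; adjusted p = 0.983) and Sult1a1 had -0.05 ± 0.18 (SE; adjusted p = 0.996). Zbtb16 had 0.76 ± 0.22 (SE; adjusted p = 0.784), with higher levels at 0.5 mg/kg than at 5 or 50 mg/kg.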

How the data were processed

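The authors deposited unnormalised read counts per gene for 26 liver libraries. The tools named, per the submitters' processing notes, are bcl2fastq and featureCounts, with mm10 as the build; per the labels' protocols, RNA was extracted with a Qiagen kit and sequenced by Novogene. The aligner, annotation, strand setting and tool versions are not given in the sources used here, so overlapping genes and near copies are uncertain. Gene positions are from GENCODE M21 on mm10. Libraries held 5433074 to 9088626 counts (median 7105531).

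Genes were filtered with filterByExpr (14415 of 54532 kept, holding 99.7% of reads), scaled by TMM and tested with edgeR 4.0.16 (R 4.3.3), by robust quasi-likelihood F tests with Benjamini-Hochberg adjustment, fitted to all 26 mice with dose and run of mouse numbers as terms. All dose groups thus share 1 estimate of the spread, and the SE of a log2 fold change had a median of 0.22. The difference between runs used 1 mean per dose and run. No pair of mice within the 2 doses agreed within sampling noise (chi-square per degree of freedom 18.3 to 117 over 20 pairs). On simulated counts for 0.5 against 0 mg/kg with 14415 genes, recovery was 26% for changes of 1.5-fold, 80% for 2-fold, 98% for 3-fold and 96% for 4-fold, with 10 false calls. Changes were planted only in better expressed genes, each gene had the same mean in both runs, and counts were drawn independently. The simulation held no variation shared across genes, such as the first component or the differences between runs. Recovery in the real mice, or for scarce genes, cannot be read from it.

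Alternatives were DESeq2 1.42.0, limma-voom (limma 3.58.1), RLE size factors, no low-count filter, a surrogate variable (sva 3.50.0), the 10 mice alone, no run term, each run alone, no mice 605 and 606, and leaving out each mouse. The members, gene lists and rules were chosen with earlier results of these data known. Genes named were the 10 each way of smallest p, up to 4 per acute phase or CAR list and 2 per other list described, those called by DESeq2, the 5 each way of largest fold change without overlap, the 3 each way of smallest p for the run difference, and 8 followed genes (Cyp2b10, Saa1, Saa2, Saa3, Orm1, Crp, Cyp7a1, Zbtb16). Others are marked where they appear. Promoters are RefSeq windows on GRCm38.p6, searched for fixed letters on both strands.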

Additional observations from a re-analysis of the deposited data

Results flagged for a closer look

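Among 156 groups of 5 mice examined for single values far from the rest of their group, 9 were found. Chance gives about 1 in 20, so the number found was close to that of chance. At 0.5 mg/kg these were mouse 606 for Serpina3m (912.8 CPM), Cyp3a13 (463.6 CPM) and Crp (1192 CPM), and mouse 623 for Abcc2 (824.8 CPM). Among the controls they were mouse 602 for Cxcl1 (44.17 CPM), mouse 603 for C9 (625 CPM, the lowest), mouse 604 for Saa2 (121.2 CPM), and mouse 619 for Psmg4 (1.33 CPM, the lowest) and Zfp119a (13.01 CPM). Control 619 is the sole control of its run, so the run difference of Psmg4 and Zfp119a rests on it.

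The log2 fold change differed between the runs for 35 genes in edgeR's quasi-likelihood test at an adjusted p under 0.05. Given as the value in the run from 619 minus that in the run from 601, the genes of smallest p were Ergic1 (1.56), the antisense transcript Gm19412 (2.18) and the proteasome assembly chaperone Psmg4 (2.32) on the positive side, and the olfactory receptor genes Olfr1033 (-3.04) and Olfr1034 (-2.75) and the zinc finger gene Zfp119a (-2.43) on the negative side. Without mice 605 and 606 the number of such genes was 0.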

How the results depend on the processing

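No paired analysis was possible because the labels give no replicate numbers shared between the doses, and the numbers used here only name the mice. The count past an adjusted p of 0.05 was 0 in edgeR, 33 within the run from 601 and 7 with DESeq2. Genes higher at an unadjusted p under 0.05 numbered 359 with the 10 mice alone, 1140 and 881 within the runs from 601 and 619, 897 with 1 surrogate variable, and 330 (without mouse 606) to 736 leaving out 1 mouse. Lower genes numbered 1204 and 917 within the runs, 890 without mice 605 and 606, and 699 with no low-count filter. Genes without overlap numbered 19 higher and 353 lower with CPM by total count, 553 and 600 without mice 605 and 606, 1009 and 853 in the run from 601, and 116 to 281 and 138 to 246 leaving out 1 mouse, highest for both without mouse 605 (also over 1.5 times for both without controls 603, 604 or 619, for higher without mouse 607 and for lower without mouse 624). Fewer mice make such genes easier to find. The run difference gave 0 genes without mice 605 and 606, 53 with RLE size factors, 14 with no low-count filter, and 0 to 621 leaving out 1 mouse. The comparison with the higher doses gave 0 to 6, with 3 without mouse 607 or 623 and 6 without mouse 624. Of 78 genes named by rule, 63 reversed in no alternative. These genes were picked from the same fit and most alternatives reuse the same mice, so this count is not independent support. Genes picked for their run difference were likely to turn in a run by that choice. Over all genes fitted in both runs, 34.4% had the same sign in each.

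In the run from 619 the list medians were 0.032 for cytokine signalling, 0.77 for PXR targets, 0.77 for glutathione S-transferases, 0.76 for carboxylesterases, 0.77 for PPAR-alpha targets, -0.32 for endothelial markers and 0.64 for the respiratory chain. In the run from 601 they were -0.17 for glutathione S-transferases, 0.008 for carboxylesterases and -0.28 for PPAR-alpha targets. Without mice 605 and 606 they were 0.15 for the acute phase, -0.10 for cytokine signalling, 0.43 for PXR targets, 0.45 for glutathione S-transferases, 0.59 for carboxylesterases, 0.47 for PPAR-alpha targets, 0.36 for the respiratory chain and -0.31 for endothelial markers.

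Fold changes that turned direction in the run from 619 were those of 1700028E10Rik (-0.0545), Cyp2c50 (-0.0431), Abcc2 (0.0076), Il1r1 (-0.35), Ndufb5 (-0.0599), Atf5 (0.23), Ergic1 (0.83), Gm19412 (1.46), Olfr1034 (-1.71), Olfr1033 (-2.02), Crp (-0.14) and Cyp7a1 (-1.05). Those of Psmg4 (-0.30) and Zfp119a (0.46) turned in the run from 601. Without mice 605 and 606 those of Il1r1 (-0.10), Saa2 (-0.11), Gm19412 (0.091), Olfr1034 (-0.37), Olfr1033 (-0.55) and Cyp7a1 (-0.16) did. Leaving out 1 mouse gave -0.19 to 0.24 for Psmg4, -0.0846 to 0.74 for Olfr1034, -0.16 to 0.55 for Olfr1033 and -0.40 to 0.19 for Zfp119a. The cause of these changes was not tested.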

Other observations

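Heat shock genes had 17 of 20 positive and 2 higher at an unadjusted p under 0.05, with a median of 0.17 that was 0.03 and 0.62 in the runs from 601 and 619. ER stress genes had 11 of 28 positive, 2 higher and 1 lower, with Xbp1, a transcription factor of secretory capacity, at 0.48 ± 0.22 (SE) and Atf5, which answers mitochondrial and amino acid stress, at -0.62 ± 0.30 (SE). Xbp1 was at 226 to 295 CPM in controls and 264 to 445 CPM at 0.5 mg/kg, and Atf5 at 84.6 to 279 and 86.0 to 189 CPM, so the groups overlapped for both.

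Transcripts of the major urinary proteins (Mup) took 5.53 to 7.74% of counts in the controls and 10.55% in mouse 605, 6.48% in mouse 606, 7.45% in mouse 607, 4.05% in mouse 623 and 2.99% in mouse 624. The mice at 0.5 mg/kg thus held both the highest and the lowest share of the 10. Proliferation genes summed to 107 to 149 CPM in controls and 105 to 130 CPM at 0.5 mg/kg, with 0 of 20 at an unadjusted p under 0.05. Stellate and fibroblast markers had 10 of 21 positive, and 1 of 21 without mice 605 and 606, in which their summed level was 604 and 597 CPM against 332 to 485 CPM in the other 8 mice.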
